A study of Homo sapiens with 6 samples.

Results

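The clustered protocadherins are adhesion molecules of the cadherin family encoded side by side in 3 gene clusters, alpha, beta and gamma, on human chromosome 5. Their transcripts were followed in the line BLaER1-CTCF-mAID, derived from B cell leukemia cells, in which both the conversion into macrophages and the loss of the DNA-binding protein CTCF can be switched on. Members were taken by symbol from the count table: 57 of 30017 rows begin with PCDHA, PCDHB or PCDHG and go on with an isoform name. They comprised 15 alpha, 19 beta and 23 gamma genes, and 4 of them (PCDHB17, PCDHB18, PCDHB19P and PCDHGB8P) are annotated as pseudogenes.

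Total RNA depleted of ribosomal RNA was sequenced in 6 libraries, with 2 replicates for each of 3 conditions. The study describes the replicates as biological. The 0 h cells were neither converted nor treated. The 96 h control cells had been turned into induced macrophages for 96 h by the transcription factor CEBPA, which estradiol activates, in the presence of the cytokines IL-3 and CSF-1. The 96 h CTCF-depleted cells were converted in the same way while also receiving the auxin indole-3-acetic acid (IAA), which triggers breakdown of the CTCF protein through its degron tag. IAA was added together with the conversion factors, so control and depleted cells are parallel end points and not successive stages. All 3 groups carry the tagged CTCF and descend from a single subclone. Since no cells without the degron received IAA among these libraries, effects of IAA itself and of CTCF loss cannot be told apart.

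In the alpha and gamma clusters, each isoform has its own promoter and its own large first exon, which is spliced to 3 exons shared within the cluster, whereas beta genes have a single large exon. Neurons switch on a few of the alternate isoforms per cell, seemingly at random, and CTCF bound at the chosen promoter and at a distant enhancer brings both together with the help of cohesin. The last genes of the alpha and gamma clusters, called C-type, differ from the alternate genes in sequence and in how they are regulated, and gamma C3 is transcribed in many cell types outside the nervous system.

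The alpha genes lie on the plus strand at chr5:140786136-141012347, the beta genes at chr5:141051374-141249365 and the gamma genes at chr5:141330514-141512977 (hg38, GENCODE release 44). The 3 shared exons of the alpha cluster are 59, 89 and 2721 bases long and belong to 15 members, and those of the gamma cluster are 59, 89 and 2029 bases long and belong to 22 members. How reads in these shared exons were assigned is not given in the sources used here, so an isoform is identified with most certainty by its own first exon. For the last genes it lies within the transcribed span of many genes that start further upstream: 20 members span the own exon of PCDHGC4 and 21 span that of PCDHGC5. In total RNA, unspliced transcripts from upstream promoters and transcripts of the isoform itself therefore cannot be told apart by position.

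Promoter sequences from RefSeq (GRCh38.p14, 250 bases before to 50 after each start) were matched to 47 members. No entry was found for PCDHA3, PCDHA13, PCDHB6, PCDHB11, PCDHB17, PCDHB18, PCDHB19P, PCDHGA12, PCDHGC5 and PCDHGB8P. A short motif known as the CGCT box, the core of a conserved element that contains the CTCF site of many of these promoters, was searched as the letters CGCT. It was found on the gene's own strand in 51 of 52 member entries (98.1%) and in 54.3% of all 35116 promoter entries, and on either strand in 98.1% and 70.0%. To show what the clusters share and where they differ, 26 bases around a match are printed for members that changed below and that have an entry, together with PCDHA1, with the letters CGCT in capitals. The conserved element is described as absent from the promoters of PCDHAC2, PCDHGC4 and PCDHGC5, so the letters alone do not show it, and no window is printed for these genes.
PCDHA1: attggccacatgatgtCGCTgtacac
PCDHB13: tgaggacgcgtggtggCGCTgcagga
PCDHB14: tggagacacatggtggCGCTacagga
PCDHGA1: ttaggactgtgggcgcCGCTgttcac
PCDHGA2: ttaggcctctgagcgtCGCTgttgac
PCDHGA10: ttaggactctgagcgcCGCTgttcac
PCDHGC3: ctgggactctgtgtgcCGCTgtcggc

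All of them are read from the plus strand upstream of the transcription start, the first at chr5:140786086-140786111, followed by chr5:141213865-141213890, chr5:141223263-141223288, chr5:141330403-141330428, chr5:141338703-141338728, chr5:141412931-141412956 and chr5:141475880-141475905. Where a promoter had several matches, the one whose surroundings were most similar to those of its cluster was shown, and PCDHGC3 had 5 of them upstream. Over the 45 members with a match upstream, it began 11 to 199 bases before the start, with a median of 60. The bases next to the match differed between the clusters. The extended match GGCGCT was found on the own strand in 13 of 14 beta entries (92.9%), in 5 of 25 gamma entries (20%) and in 0 of 13 alpha entries, against 12.6% of all promoters, and on either strand in 13, 11 and 1 of these entries, against 21.7% of all promoters. The extended match CGCTGT, which shares the letters CGCT with it, was found on the own strand in 20 of 25 gamma entries (80.0%), in 6 of 13 alpha entries (46.2%) and in 1 of 14 beta entries, against 5.95% of all promoters, and on either strand in 21, 7 and 1 of them, against 11.2%. These matches describe the sequence and do not show that CTCF was bound in these cells.

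Total counts ranged from 9273470 to 12718780 per library, so that 1 count corresponded to between 0.0750 and 0.103 CPM (counts normalized to library size with TMM scaling). CTCF itself reached 231 and 214 CPM at 0 h, 181 and 174 CPM in control and 191 and 189 CPM in depleted libraries. The degron removes the protein, so the transcript does not measure the depletion, and the CTCF transcript differed by a log2 fold change of 0.10 (SE 0.05, adjusted p = 0.119) between depleted and control cells.

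Markers followed the labelled cell types. The summed level of 6 B cell genes was 2150 and 2169 CPM at 0 h, 386 and 391 CPM in control and 339 and 355 CPM in depleted libraries, with EBF1 as the most abundant. The summed level of 6 macrophage genes was 39.2 and 37.0 CPM at 0 h, 5271 and 5022 CPM in control and 4964 and 4939 CPM in depleted libraries, with LYZ, the gene of lysozyme, leading in both 96 h groups. B cell genes were thus high only at 0 h and macrophage genes only at 96 h, while residual B cell transcripts stayed detectable in both 96 h groups. The part of such cells in the results was not tested, and in bulk RNA fewer cells of a type and less RNA per cell cannot be told apart.

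Because these genes are best known from the brain, markers of other cell types were also examined. Of 7 neuronal and neural progenitor genes, 3 exceeded 3 counts in some library, the defining genes SNAP25 and SOX2 were at 0, and the sum of the list was 116 and 114 CPM at 0 h, 19.4 and 20.5 CPM in control and 16.9 and 18.9 CPM in depleted cells. The 3 genes above 3 counts were MAP2, a cytoskeletal gene with 60.4 and 62.5 CPM at 0 h, TUBB3, a tubulin gene with 47.4 and 42.6 CPM there, and NES, an intermediate filament gene with 7.84 and 8.63 CPM. Of 4 astrocyte and glia genes, 0 exceeded 3 counts in any library. AQP4, a water channel of astrocytes, was at 0 in each of the 6 libraries. The sum of this list was 0.103 and 0.225 CPM at 0 h, 0.177 and 0 CPM in control and 0 CPM in both depleted libraries. Of 4 fibroblast genes, 3 exceeded 3 counts in some library and DCN was at 0. The sum, mostly PDGFRB, was 250 and 256 CPM at 0 h, 32.1 and 29.1 CPM in control and 32.8 and 32.7 CPM in depleted cells. COL1A2 went the other way, with 0 counts in both 0 h libraries, 1 and 0 in control and 8 and 5 in depleted libraries. Against a floor of 3 counts per library, it was at least 2.25-fold higher in depleted cells than at 0 h. Of 4 epithelial genes, 1 (KRT18) exceeded 3 counts, with sums of 0.103 and 0.0750 CPM at 0 h, 0 and 0.463 CPM in control and 0.278 and 0.368 CPM in depleted libraries and with EPCAM and CDH1 at 0. SNAP25, SOX2, AQP4, EPCAM and CDH1 were therefore not detected, while MAP2, TUBB3 and NES were, with their highest levels at 0 h.

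The 3 clusters differed first of all in whether they were detected. All 15 alpha genes had at most 1 count in every library, the beta cluster had 6 of 19 genes above 3 counts in at least 1 library, and all 23 gamma genes exceeded 3 counts in at least 1 library. Over all 6 libraries the clusters collected 4, 218 and 8058 counts. A total of 18 members, 11 alpha and 7 beta, had no count in any library. Only 19 members, 2 beta and 17 gamma, passed the filter on low counts and were tested with the 14758 genes of the fit. The plot of all members by library shows this contrast between the clusters.

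**Figure D1:**
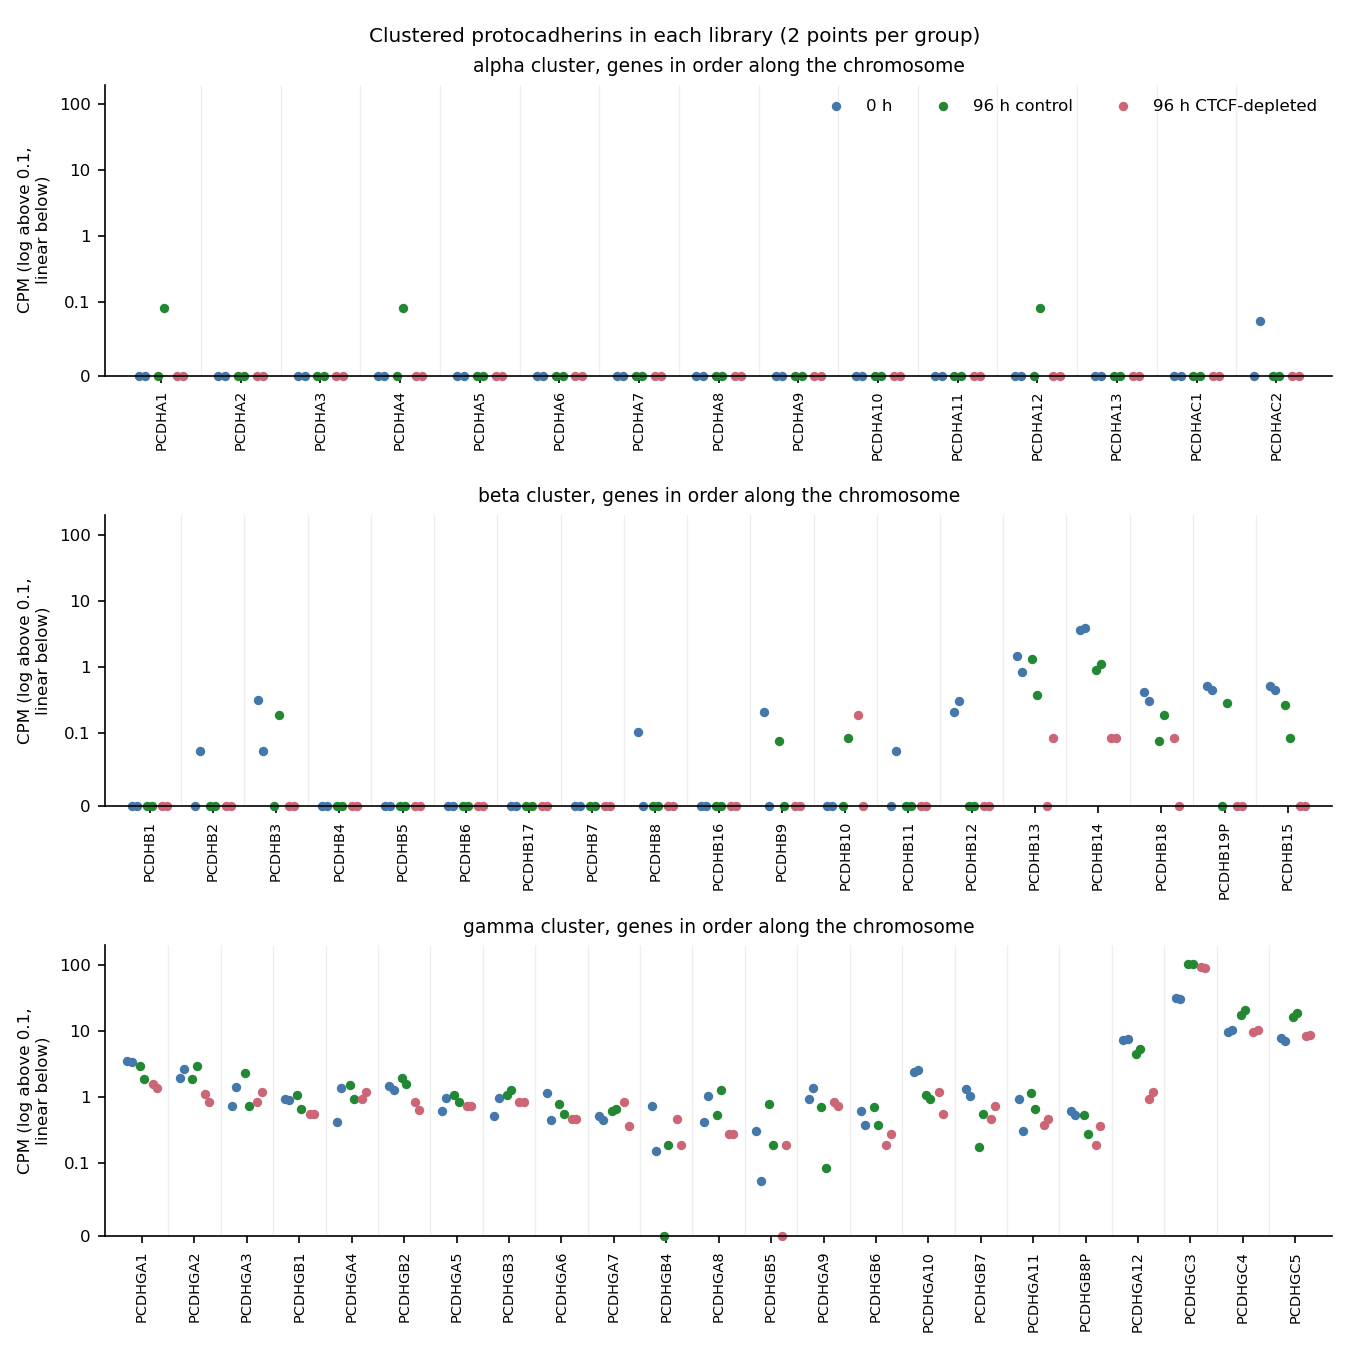
Level of each of the 57 clustered protocadherins in CPM, in gene order, with 2 points per condition (blue, 0 h; green, 96 h control; red, 96 h CTCF-depleted) and an axis that is logarithmic above 0.1 and linear below. Alpha genes sit at or near 0, beta signal is concentrated in the last genes of the cluster, and gamma genes are detected throughout with the highest levels at PCDHGC3, PCDHGC4 and PCDHGC5.

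Genes were called with edgeR's quasi-likelihood test at a Benjamini-Hochberg adjusted p below 0.01, with a log2 fold change beyond 0.6 in either direction. In control macrophages against 0 h cells, 3 tested members were higher, where 25.4% of all tested genes were called higher, and 3 were lower, where 22.9% of all genes were called lower. In CTCF-depleted against control macrophages, 6 tested members were lower, against 7.03% of all genes, and 0 were higher, against 5.41%. At an unadjusted p under 0.05 the number higher was also 0, as it was with DESeq2, which called 3 rather than 6 members lower. In CTCF-depleted macrophages against 0 h cells, 1 member was higher, against 27.2% of all genes, and 6 were lower, against 25.2%. DESeq2 called 3 of the latter lower, and 1 rather than 3 in control against 0 h. The comparisons share libraries, and since a member could pass the filter through the group in which it was high, these counts describe the tested members and not the clusters as a whole.

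**Figure D2:**
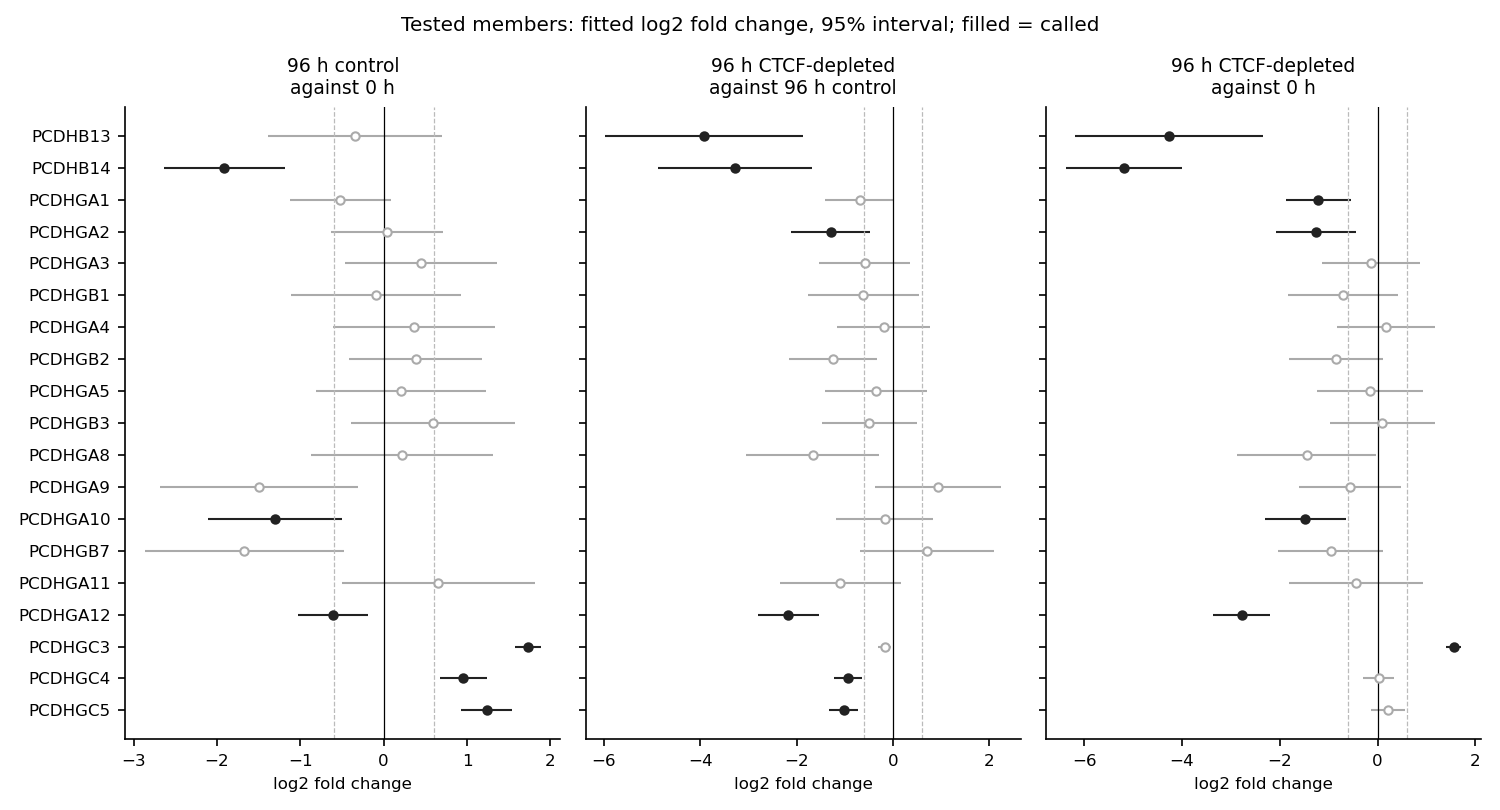
Fitted log2 fold change of the 19 tested members in the 3 comparisons, with 95% intervals , filled where called and with dashed lines at the fold change threshold of 0.6. PCDHGC3, PCDHGC4, PCDHGC5 and PCDHGA11, the last of them not called, lie to the right of the 0.6 line in the control against 0 h panel. Of these, only PCDHGC3 lies to the right of it in the CTCF-depleted against 0 h panel.

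The alpha cluster was not detectable at this depth in any condition. PCDHA1, PCDHA4 and PCDHA12 each had 1 count in control replicate 2 and 0 counts elsewhere, and PCDHAC2, a C-type isoform, had 1 count in 0 h replicate 2. PCDHAC1, the other C-type isoform of this cluster, had 0 counts in all 6 libraries. The 3 counts that were taken as the floor correspond to 0.225 to 0.309 CPM, so lower levels of alpha transcripts could not be seen, and no fold change was computed.

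The beta cluster was low at 0 h, lower in control macrophages and close to undetectable after CTCF depletion. Its 19 genes together had 71 and 86 counts at 0 h, 30 and 25 in the control libraries and just 4 and 2 after depletion. As summed level this was 6.89 ± 0.62 CPM at 0 h, 2.48 ± 0.24 CPM in control and 0.277 ± 0.132 CPM in depleted cells (SD, n = 2 in each). No library of one group overlapped with another group. From summed counts, the level was 2.74 times higher at 0 h than in control macrophages (exact 95% counting interval 2.01 to 3.80) and 8.97 times higher in control than in depleted macrophages (3.87 to 25.5). Such intervals cover counting error only, since reads without molecular identifiers are not independent molecules, and an exact permutation test of 2 against 2 libraries cannot go below p = 0.333 (two-sided).

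PCDHB14 had the most counts of the beta genes at 0 h. It had 35 and 52 counts at 0 h, 10 and 12 counts in control and 1 and 1 count in depleted libraries. Its level was thus lower in control than at 0 h and lower still in depleted cells, and the groups did not overlap. Against 0 h cells, control macrophages had a log2 fold change of -1.91 (SE 0.37, adjusted p = 8.27e-06). Between control and depleted macrophages the ratio of summed counts was 10.8 (exact 95% counting interval 2.65 to 94.4), and the gene was called lower after depletion (edgeR adjusted p = 8.99e-04). With a single depleted library, or without control replicate 2, the latter call was lost at adjusted p-values from 0.0136 to 0.0142 although the log2 fold change stayed between -3.28 and -3.11, and DESeq2 gave an adjusted p of 0.0159 (range over 12 alternatives 4.28e-04 to 0.0159). The gene overlaps a gene without a symbol on the same strand in GENCODE, and reads from both cannot be told apart by position.

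PCDHB13, whose gene lies just upstream of PCDHB14, showed the loss with depletion but no called change at the conversion. It had 14 and 11 counts at 0 h, 15 and 4 counts in control and 0 and 1 count in depleted libraries. The control replicates differed widely and overlapped with 0 h, and the log2 fold change between them was -0.35 (SE 0.53, adjusted p = 0.562). Control exceeded depleted macrophages by a count ratio of 18.6 (exact 95% counting interval 2.96 to 773), with an edgeR adjusted p of 0.00192. The call was lost without control replicate 1 (log2 fold change -2.73, against -3.92 with it, adjusted p = 0.144) and without depleted replicate 1 (-3.07, adjusted p = 0.0366), and DESeq2 gave no adjusted p for it (range over the other 11 alternatives 0.00138 to 0.144). Depleted cells were also lower than 0 h cells, with 1 against 25 counts (ratio of 0 h to depleted 23.5, exact 95% counting interval 3.85 to 965, edgeR adjusted p = 1.12e-04).

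The remaining beta genes contributed few counts, mainly from the end of the cluster. PCDHB15, the last gene, had 5 and 6 counts at 0 h, 3 and 1 counts in control and 0 counts in both depleted libraries. The pseudogene PCDHB19P had 5 and 6 counts at 0 h, 0 and 3 counts in control and 0 counts in depleted libraries. Both were at least 1.74-fold lower in depleted cells than at 0 h, measured against a floor of 3 counts per library. The pseudogene PCDHB18 had 4 and 4 counts at 0 h and at most 2 counts in any other library, and PCDHB12 had 2 and 4 counts at 0 h and 0 counts at 96 h. Leaving out PCDHB13 and PCDHB14, the other 17 beta genes summed to 22 and 23 counts at 0 h, 5 and 9 in control and 3 and 0 in depleted libraries. Their summed level was 4.57 times higher in control than in depleted macrophages, with a counting interval of 1.27 to 24.8. With so few counts, and 0 in a single depleted library, whether these genes fell with depletion was not tested, and single members other than PCDHB13 and PCDHB14 were too low to test. PCDHB13 and PCDHB14 themselves passed the filter through the groups in which they were high.

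The gamma cluster held most of the signal, and its sum behaved differently from that of the beta cluster. Its 23 genes summed to 76.5 and 76.4 CPM at 0 h, 164 and 164 CPM in control and 125 and 123 CPM in depleted libraries. The sum was 2.14 times higher in control macrophages than at 0 h (exact 95% counting interval 2.02 to 2.27) and fell to 0.755 of the control level with depletion (0.718 to 0.794). PCDHGC3 held the largest part of these counts in both 96 h groups. Without it, the other 22 genes had 45.3 ± 0.7 CPM at 0 h, 60.2 ± 1.7 CPM in control and 32.0 ± 0.3 CPM in depleted cells (SD, n = 2 in each), so that depleted cells lay below both other groups.

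**Figure D3:**
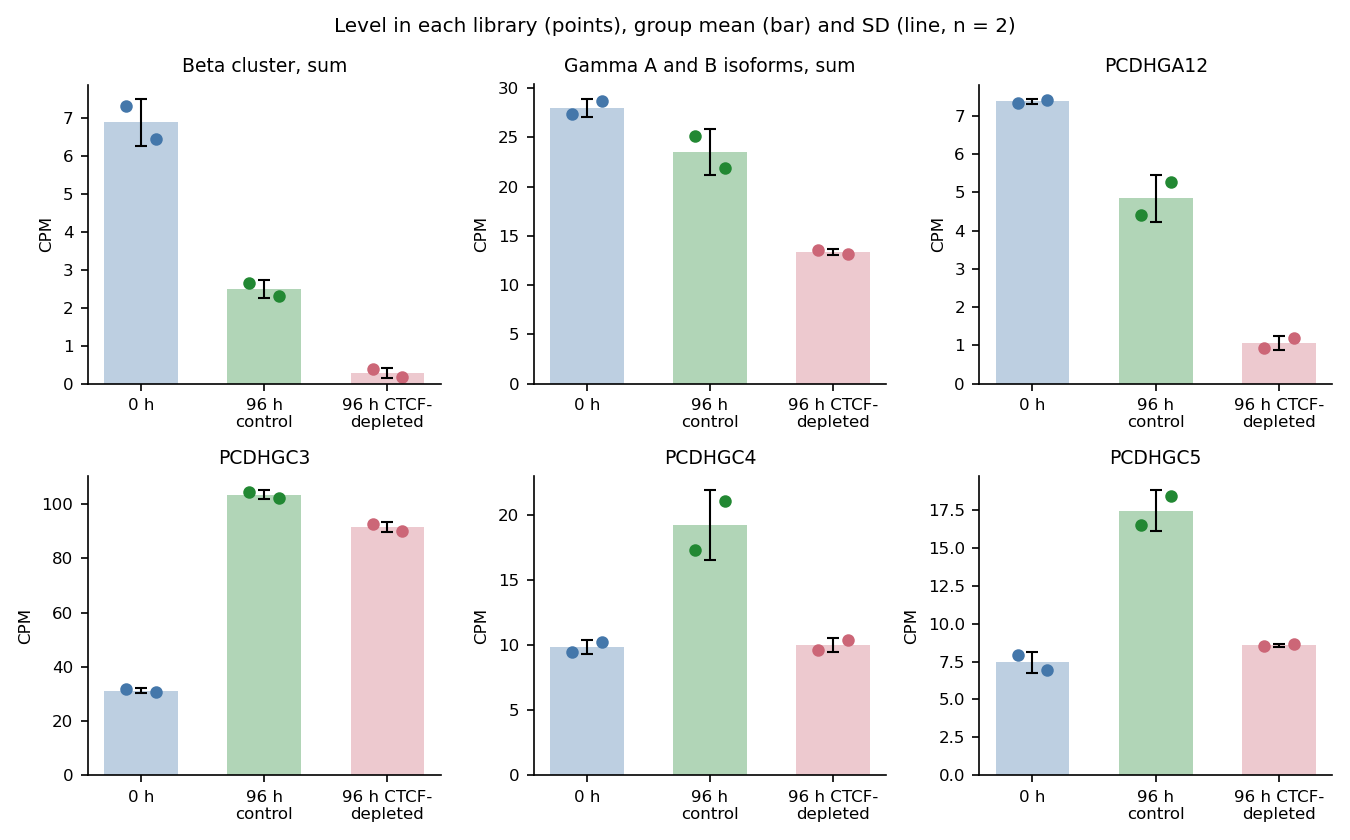
Level in CPM of the beta cluster, the gamma A and B isoforms, PCDHGA12 and the 3 gamma C-type isoforms in each library (points), with the group mean (bar) and SD (line, n = 2). The beta sum and PCDHGA12 are highest at 0 h, lower in control and lowest in depleted cells. PCDHGC3 is high in both 96 h groups, and PCDHGC4 and PCDHGC5 are highest in control macrophages.

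PCDHGC3 had the most counts of the clustered protocadherins in every library. It reached 31.8 and 30.6 CPM at 0 h, 105 and 102 CPM in control and 92.8 and 90.3 CPM in depleted libraries. The level in macrophages was 3.32 times that of 0 h cells (log2 fold change 1.73, SE 0.08, adjusted p = 3.99e-28) and remained 2.94 times as high with CTCF depletion (log2 fold change 1.56, SE 0.08, adjusted p = 9.28e-26). Between depleted and control macrophages the log2 fold change was -0.18 (SE 0.07, adjusted p = 0.0344). The 4 libraries did not overlap, and this small difference did not reach the threshold of 0.6.

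PCDHGC4 and PCDHGC5 rose at the conversion in control cells and were not called in depleted against 0 h cells. PCDHGC4 had 9.49 and 10.2 CPM at 0 h, 17.3 and 21.1 CPM in control and 9.63 and 10.4 CPM in depleted libraries. PCDHGC5 had 7.94 and 6.98 CPM at 0 h, 16.5 and 18.4 CPM in control and 8.52 and 8.66 CPM in depleted libraries. For both genes the control libraries stood above all other libraries. Control against 0 h gave log2 fold changes of 0.96 (SE 0.14, adjusted p = 4.24e-08) for PCDHGC4 and 1.24 (SE 0.16, adjusted p = 3.19e-10) for PCDHGC5. Depleted against control gave -0.94 (SE 0.15, adjusted p = 3.62e-07) and -1.02 (SE 0.15, adjusted p = 1.46e-07). Depleted against 0 h gave 0.02 (95% interval -0.30 to 0.34) for PCDHGC4 and 0.21 (-0.13 to 0.56) for PCDHGC5, neither of which was called, although both depleted libraries of PCDHGC5 lay above its 0 h libraries.

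The proportions of the C-type isoforms shifted between the conditions. The ratio of PCDHGC4 to PCDHGC3 counts was 0.316 ± 0.024 at 0 h, 0.186 ± 0.029 in control and 0.110 ± 0.008 in depleted cells (SD, n = 2 in each). For PCDHGC5 to PCDHGC3 it was 0.239 ± 0.016, 0.169 ± 0.016 and 0.0939 ± 0.0029. Both ratios were lower in control than at 0 h and lower again in depleted cells by more than the spread between replicates. The ratio of PCDHGC4 to PCDHGC5 was 1.33 ± 0.19, 1.10 ± 0.07 and 1.17 ± 0.05. Whether the isoforms differed in their response was not tested. As the own exons of both lie within the transcribed span of PCDHGC3, the part of unspliced upstream transcripts in their counts was not tested.

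Among the alternate gamma genes, PCDHGA12, the last one before the C-type genes, had the most counts at 0 h and in control cells, and these fell with depletion. It had 7.32 and 7.43 CPM at 0 h, 4.41 and 5.28 CPM in control and 0.926 and 1.20 CPM in depleted libraries. Depleted cells were lower than control macrophages with a log2 fold change of -2.18 (SE 0.32, adjusted p = 1.15e-07), and this call held in all 12 alternatives other than a looser threshold, with log2 fold changes from -2.37 to -2.00. Compared with 0 h the log2 fold change in depleted cells was -2.78 (SE 0.30, adjusted p = 1.59e-12). The difference between control and 0 h was near the threshold, with a log2 fold change of -0.61 (SE 0.22, adjusted p = 0.00967). It lost its call with DESeq2 (adjusted p = 0.0891), with a block for the replicates, and without either 0 h library, either control library or depleted replicate 2, where the adjusted p was between 0.0102 and 0.104 (range over 12 alternatives 0.00365 to 0.104).

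PCDHGA1 and PCDHGA2 are the first genes of the gamma cluster. PCDHGA1 had 3.51 and 3.38 CPM at 0 h, 2.91 and 1.85 CPM in control and 1.57 and 1.38 CPM in depleted libraries. Depleted and control cells were not called different (log2 fold change -0.69, SE 0.37, adjusted p = 0.135). It was called between depleted and 0 h cells, with a log2 fold change of -1.21 (SE 0.34, adjusted p = 0.00124), and not without depleted replicate 2 (adjusted p = 0.0190) or with DESeq2 (adjusted p = 0.0191; range over 12 alternatives 4.01e-04 to 0.0191). PCDHGA2 had 1.96 and 2.63 CPM at 0 h, 1.85 and 2.96 CPM in control and 1.11 and 0.829 CPM in depleted libraries. Depleted libraries were thus below all others, while 0 h and control overlapped. The log2 fold change of PCDHGA2 in depleted cells was -1.30 against control (SE 0.42, adjusted p = 0.00974) and -1.26 against 0 h (SE 0.41, adjusted p = 0.00538). The call against control was marginal: it was lost in 10 of 12 alternatives, with adjusted p-values of 0.0106 to 0.184 (range over 12 alternatives 0.00801 to 0.184), among them those without either 0 h library, without control replicate 2 and without either depleted library. The call against 0 h was lost without 0 h replicate 2, without either depleted library and with DESeq2, at adjusted p-values of 0.0134 to 0.0886 (range over 12 alternatives 0.00330 to 0.0886).

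PCDHGA10 was lower in control than in 0 h cells and showed no called change between depleted and control cells. It had 2.37 and 2.55 CPM at 0 h, 1.06 and 0.926 CPM in control and 1.20 and 0.553 CPM in depleted libraries. Both 96 h groups lay below 0 h and overlapped with each other. The log2 fold change was -1.30 in control (SE 0.41, adjusted p = 0.00381) and -1.48 in depleted cells (SE 0.42, adjusted p = 0.00146) against 0 h. The first call was lost when any 1 of the 4 compared libraries was left out (adjusted p from 0.0118 to 0.0357) or with DESeq2 (adjusted p = 0.0471; range over 12 alternatives 0.00210 to 0.0471), and the second without 0 h replicate 2 (adjusted p = 0.0177), without depleted replicate 2 (adjusted p = 0.0585) or with DESeq2 (adjusted p = 0.0264; range 8.45e-04 to 0.0585). Depleted and control cells differed by a log2 fold change of -0.18 (SE 0.51, adjusted p = 0.822).

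The other gamma A and B genes had low counts, and 10 tested genes among them were not called in any comparison. The 6 gamma genes that were not tested had between 0 and 11 counts in each library. PCDHGB2 came close to a call, with 1.44 and 1.28 CPM at 0 h, 1.94 and 1.57 CPM in control and 0.833 and 0.645 CPM in depleted cells and an adjusted p of 0.0297 for depleted against control. PCDHGA9 and PCDHGB7 had log2 fold changes of -1.50 (adjusted p = 0.0231) and -1.67 (adjusted p = 0.0118) in control against 0 h. At the same thresholds PCDHGA9 was called lower without control replicate 1 (adjusted p = 0.00312), and PCDHGB7 without control replicate 2 (adjusted p = 0.00785). Both also passed an adjusted p below 0.05 with no fold change threshold. They were also the tested members with log2 fold changes above 0 in depleted against control cells, 0.93 (95% interval -0.37 to 2.24) and 0.71 (-0.68 to 2.10), and neither was called. These 3 genes were named after their values were seen.

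Summed over all 20 gamma A and B genes, the level was 27.3 and 28.7 CPM at 0 h, 25.2 and 21.9 CPM in control and 13.6 and 13.2 CPM in depleted libraries. Depletion lowered the sum to 0.569 of the control level (exact 95% counting interval 0.491 to 0.658), and without PCDHGA12 to 0.659 (0.563 to 0.770). The decrease was thus not limited to PCDHGA12. Conversion itself changed the sum less, to 0.838 of the 0 h level (0.745 to 0.942), and without PCDHGA12 the interval included 1 (0.903, 0.790 to 1.03).

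The share of PCDHGC3 in the gamma counts was higher in control than at 0 h and higher still in depleted cells. PCDHGC3 made up 41.5% (95% Wilson interval 38.0 to 45.1) and 40.0% (37.1 to 43.1) of gamma counts at 0 h. It made up 64.0% (61.8 to 66.1) and 62.5% (60.2 to 64.7) in control libraries and 74.5% (72.1 to 76.8) and 73.7% (71.3 to 76.0) in depleted libraries. The libraries of the 3 groups did not overlap, and the intervals cover counting error only. Gamma A isoforms took 28.9 ± 2.3% of gamma counts at 0 h, 10.9 ± 0.9% in control and 7.89 ± 0.31% in depleted cells, and gamma B isoforms 7.73 ± 1.08%, 3.47 ± 0.51% and 2.95 ± 0.18% (SD, n = 2 in each). For gamma B isoforms the control and depleted values lay within about the spread between replicates. A share depends on all members of the cluster, and the fall of the gamma A share in control cells accompanied the rise of PCDHGC3.

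**Figure D4:**
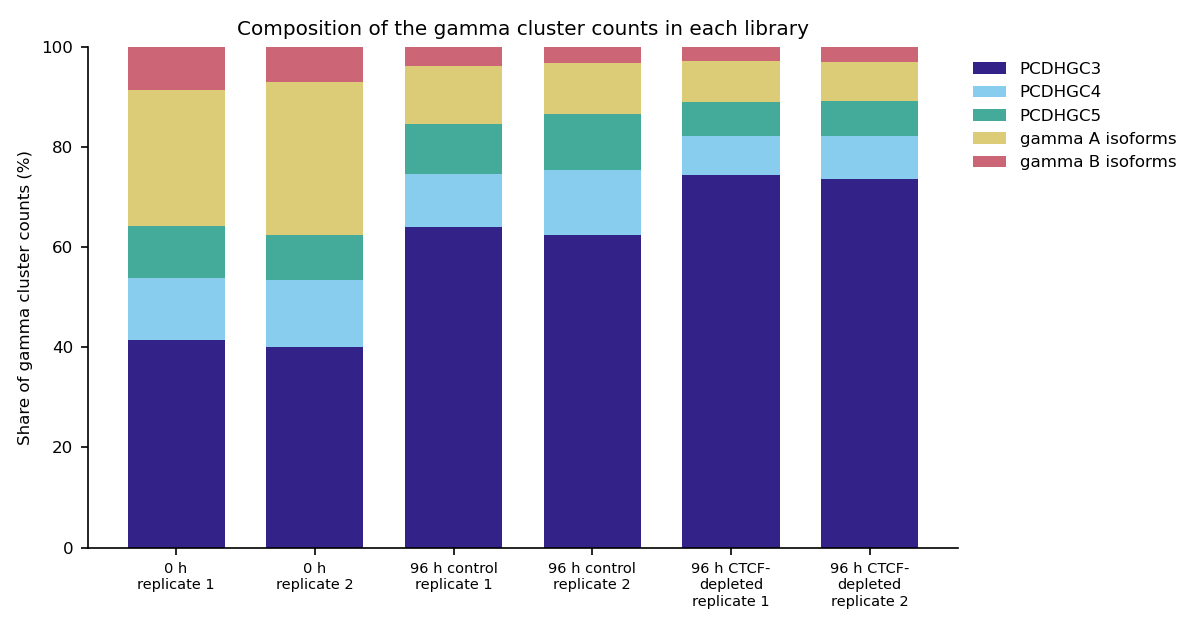
Share of all gamma cluster counts taken by PCDHGC3, PCDHGC4, PCDHGC5, the gamma A and the gamma B isoforms in each of the 6 libraries, in percent. The PCDHGC3 segment is 41.5% and 40.0% at 0 h, 64.0% and 62.5% in control and 74.5% and 73.7% in CTCF-depleted libraries.

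To compare levels between genes, CPM were divided by the kilobases of exon that no other member shares. This treats all counts of a gene as coming from its own exons, while the assignment of reads in shared exons is not known. The exon lengths came from GENCODE, and the annotation release behind the counts is not given. The order of genes below depends on both points, and their effect on it was not tested. At 0 h, PCDHGC3 had 9.59 ± 0.25 CPM per kilobase, followed by PCDHGC4 with 3.52 ± 0.18, PCDHGA12 with 2.72 ± 0.03 and PCDHGC5 with 2.62 ± 0.24. PCDHGA12 and PCDHGC5 did not differ beyond their spread, and PCDHB14 with 0.850 ± 0.046 and PCDHGA1 with 0.834 ± 0.023 came next, also within their spread. In control macrophages, PCDHGC3 had 31.8 ± 0.5 CPM per kilobase, PCDHGC4 6.88 ± 0.97, PCDHGC5 6.13 ± 0.48 and PCDHGA12 1.78 ± 0.23. PCDHGC4 and PCDHGC5 lay within their spread of each other. In depleted macrophages, PCDHGC3 had 28.1 ± 0.5, PCDHGC4 3.59 ± 0.20 and PCDHGC5 3.01 ± 0.03 CPM per kilobase (SD, n = 2 throughout). PCDHGA12 had 0.391 ± 0.071 CPM per kilobase there, within the spread of PCDHGA4 with 0.392 ± 0.071 and of PCDHGA3 with 0.377 ± 0.096, so that it no longer stood out among the gamma A genes.

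Of 27 genes around and between the clusters in the table, 23 were tested. In depleted against control cells, 2 of them were higher, 1 was lower and 20 were not called, where 5.41% of all genes were called higher and 7.03% lower, with a median log2 fold change of 0.08 beside -0.03 for all genes. TAF7, a subunit of the general transcription factor TFIID that lies between the beta and gamma clusters, had 111 and 113 CPM at 0 h, 115 and 112 CPM in control and 117 and 108 CPM in depleted libraries. DIAPH1, an actin-nucleating formin next to the gamma cluster, had 238 and 249 CPM at 0 h, 541 and 562 CPM in control and 546 and 551 CPM in depleted libraries. TAF7 was not called in any comparison, and DIAPH1 rose at the conversion (log2 fold change 1.18, SE 0.05, adjusted p = 1.34e-30) without a called change upon depletion (-0.01, SE 0.04, adjusted p = 0.910).

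SLC25A2, the gene of a mitochondrial ornithine carrier located within the annotated span of TAF7, was higher where its beta neighbors were lower. It had 1.24 and 1.65 CPM at 0 h, 3.80 and 3.52 CPM in control and 7.22 and 6.45 CPM in depleted libraries. The groups did not overlap, and the log2 fold change was 1.31 (SE 0.32, adjusted p = 2.24e-04) in control against 0 h and 0.90 (SE 0.24, adjusted p = 0.00169) in depleted against control cells. The second call was lost without either control library or without depleted replicate 1 (adjusted p from 0.0178 to 0.0327) and with DESeq2 (adjusted p = 0.0394; range over 12 alternatives 2.72e-04 to 0.0394). As it shares its strand with TAF7, reads from unspliced TAF7 transcripts cannot be told apart from its own.

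Further away, TMCO6, a transmembrane protein gene, was higher in depleted than in control cells with 47.2 and 44.7 CPM in control and 127 and 138 CPM in depleted libraries (log2 fold change 1.53, SE 0.07, adjusted p = 9.90e-25), from 17.4 and 17.9 CPM at 0 h. RELL2, a member of the RELT family, was lower, with 9.59 and 9.15 CPM at 0 h, 13.4 and 13.8 CPM in control and 6.94 and 8.20 CPM in depleted libraries (log2 fold change -0.84, SE 0.16, adjusted p = 2.69e-05). CD14, the lipopolysaccharide co-receptor of macrophages, had 0 and 4 counts at 0 h, 115 and 139 in control and 153 and 189 in depleted libraries, and depleted and control cells were not called different (adjusted p = 0.0197). In control against 0 h, 9 of the 23 genes were higher and 0 lower, where 25.4% of all genes were higher and 22.9% lower. CD14 and PCDH12 passed the filter through the 96 h groups in which they were high. The filter thus favored a difference in these genes, and no median was taken. The 6 with the smallest adjusted p were ARAP3, DIAPH1, APBB3, CD14, KIAA0141 and TMCO6. At an unadjusted p under 0.05, 2 of the 23 were lower, and DESeq2 also called 0. In depleted against 0 h (all genes 27.2% higher, 25.2% lower), 11 were higher, led by ARAP3, TMCO6, DIAPH1, APBB3, CD14 and PCDH12, and 0 lower (2 at an unadjusted p under 0.05, 0 with DESeq2).

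**Figure D5:**
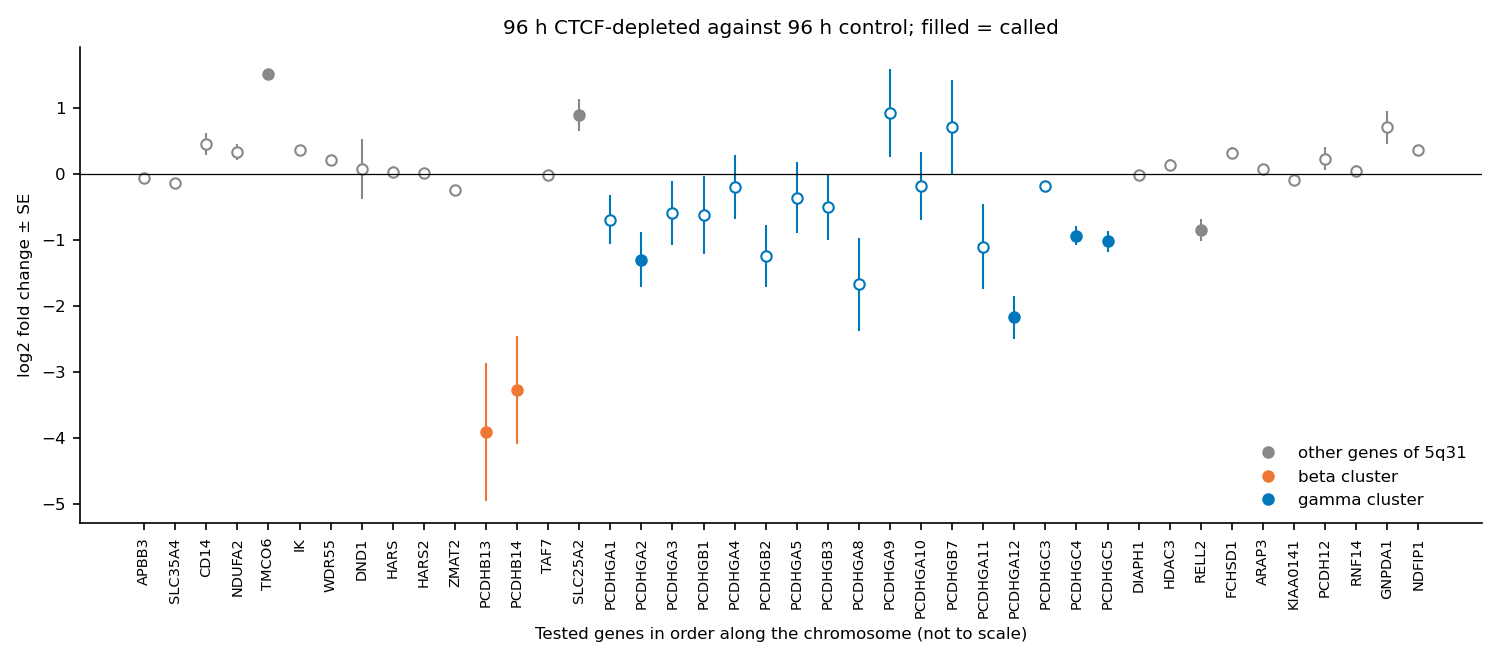
Log2 fold change with SE in CTCF-depleted against control macrophages for the tested beta (orange) and gamma (blue) genes and the other tested genes of the region (gray), in gene order and not to scale, filled where called. All beta and most gamma points lie below 0, while most neighbors lie close to 0. Among the neighbors, TMCO6, SLC25A2 and GNPDA1, the last of them not called, lie furthest above 0, and RELL2 lies furthest below it.

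Protocadherins encoded outside the clusters also changed at the conversion. Of 12 in the table, 5 were tested. In control against 0 h, 3 of them were higher and 2 lower, where 25.4% of all genes were called higher and 22.9% lower. The 3 higher genes (PCDH7, PCDH12 and PCDH15) passed the filter through the 96 h groups in which they were high. The filter thus favored genes that were higher there, and no median was taken. PCDH9, with the most counts of them at 0 h, had 276 and 284 CPM there, 7.77 and 9.26 CPM in control and 27.5 and 22.8 CPM in depleted libraries. Its loss was less deep in depleted cells, where it was higher than in control (log2 fold change 1.57, SE 0.12, adjusted p = 7.01e-17). PCDH15, a component of the tip links of hair cells, had 0 counts in both 0 h libraries, 67 and 44 in control and 26 and 23 in depleted libraries. It was at least 18.7-fold higher in control and at least 8.47-fold higher in depleted cells than at 0 h, against the floor of 3 counts per library. Depleted cells had less of it than control cells (log2 fold change -1.14, SE 0.30, adjusted p = 0.00151), a call lost without control replicate 1 or either depleted library (adjusted p from 0.0109 to 0.0962) and with DESeq2 (adjusted p = 0.0556; range over 12 alternatives 5.29e-04 to 0.0962).

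Among the rest of these genes, PCDH12, an endothelial protocadherin, was higher in both 96 h groups, with 0.722 and 0.375 CPM at 0 h, 9.44 and 8.89 CPM in control and 11.2 and 10.4 CPM in depleted libraries. PCDH18 was lower, with 30.3 and 29.9 CPM at 0 h, 15.0 and 13.2 CPM in control and 8.61 and 11.2 CPM in depleted libraries. PCDH7 had 1 and 0 counts at 0 h, 14 and 9 in control and 4 and 13 in depleted libraries, a count ratio of 23.9 for control to 0 h (exact 95% counting interval 3.89 to 986). Its call in control against 0 h was lost without 0 h replicate 2 (adjusted p = 0.0150; range over 12 alternatives 5.25e-05 to 0.0150), and that in depleted against 0 h without 0 h replicate 2 (adjusted p = 0.0422), without depleted replicate 2 (adjusted p = 0.0693) or with DESeq2 (adjusted p = 0.0170; range 1.35e-04 to 0.0693). In depleted against control cells the list had 1 gene higher, 1 lower and 3 not called, where 5.41% of all genes were higher and 7.03% lower. In depleted against 0 h, 3 were higher and 2 lower, where 27.2% of all genes were higher and 25.2% lower.

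Transcripts of factors known to act on these promoters or on their silencing were also examined. Of 24 in the table, 23 were tested, and WAPL was not analysed here. In depleted against control cells, 1 was higher, 2 were lower and 20 were not called, where 5.41% of all genes were higher and 7.03% lower, with a median log2 fold change of -0.10 beside -0.03 for all genes. STAG1, a cohesin subunit, had 143 and 149 CPM at 0 h, 117 and 123 CPM in control and 260 and 272 CPM in depleted libraries, a log2 fold change of 1.15 against control (SE 0.05, adjusted p = 9.52e-26). REST, a repressor of neuronal genes, was just past the fold change threshold (-0.61, SE 0.05, adjusted p = 4.62e-16). Without control replicate 2 or depleted replicate 2, with RLE scaling, with DESeq2 and in 2 other alternatives its log2 fold change was between -0.60 and -0.58, which is short of it. DNMT3B, a de novo DNA methyltransferase, had 9.70 and 10.9 CPM at 0 h, 6.88 and 9.82 CPM in control and 5.56 and 4.70 CPM in depleted libraries. Its log2 fold change of -0.70 against control (SE 0.20, adjusted p = 0.00454) was not called without control replicate 2 (adjusted p = 0.218), without depleted replicate 2 (adjusted p = 0.0686) or with DESeq2 (adjusted p = 0.0556; range over 12 alternatives 0.00283 to 0.218).

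Others with known roles stayed below the fold change threshold. SMCHD1, which represses clustered protocadherins on silenced alleles, had a log2 fold change of -0.29 (SE 0.05, adjusted p = 7.40e-07) in depleted against control cells. For RAD21, the cohesin subunit that joins the ring, it was -0.22 (SE 0.04, adjusted p = 7.50e-05), and for DNMT3A, the other de novo methyltransferase, 0.16 (SE 0.06, adjusted p = 0.0166). Neither was called. In control against 0 h, 3 regulators were higher and 4 lower, where 25.4% of all genes were higher and 22.9% lower, with a median of 0.01 beside 0.02, and the 6 with the smallest adjusted p were TET2, REST and NIPBL, which were higher, and TRIM28, EHMT2 and SMC3, which were lower. SMC3 was short of the fold change threshold without 0 h replicate 2 (log2 fold change -0.55), while DNMT3A, at -0.56 (SE 0.06, adjusted p = 1.26e-13), passed it without control replicate 2 (-0.61). TET2, which oxidizes methylated DNA, went from 102 and 111 CPM at 0 h to 709 and 750 CPM in control and 763 and 775 CPM in depleted libraries. In depleted against 0 h (all genes 27.2% higher, 25.2% lower), 3 were higher (TET2, STAG1 and NIPBL) and 6 lower, led by TRIM28, DNMT1 and SMC3, with a median of -0.17 beside 0.02.

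Binding partners and processing enzymes of clustered protocadherins, among them focal adhesion kinases, the WAVE complex and the proteases that cleave these proteins, had no called change after depletion. Of 20 genes, 19 were tested, and in depleted against control cells 0 were called in either direction with edgeR or DESeq2, while 6 were higher and 5 lower at an unadjusted p under 0.05. Of all genes, 5.41% were called higher and 7.03% lower. The median log2 fold change was 0.02 beside -0.03. In control against 0 h, 5 were higher and 3 lower, where 25.4% of all genes were higher and 22.9% lower, with a median of 0.07 beside 0.02. ADAM10, the protease that sheds the ectodomain, went from 341 and 354 CPM at 0 h to 730 and 741 CPM in control and 589 and 586 CPM in depleted libraries. CYFIP2, a WAVE complex subunit, fell from 467 and 473 CPM to 141 and 132 CPM in control and 112 and 107 CPM in depleted libraries. FYN, a Src family kinase called lower, was short of the fold change threshold without 0 h replicate 2 (log2 fold change -0.58). In depleted against 0 h, 6 were higher and 4 lower, where 27.2% of all genes were higher and 25.2% lower, with a median of 0.00 beside 0.02. CYFIP1, a WAVE complex subunit called lower there, was short of the fold change threshold without 0 h replicate 2 (log2 fold change -0.58), without depleted replicate 1 (-0.60) and with another filter on low counts (-0.57).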

How the data were processed

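RNA-seq was measured in 6 libraries of a cell line, 2 biological replicates per condition. The authors deposited raw counts per gene, made with the nf-core/rnaseq pipeline, STAR 2.6.1d and featureCounts 2.0.6 over protein-coding exons of hg38, per the submitters' processing notes and the study's methods. The deposited counts also cover pseudogenes such as PCDHB19P and PCDHGB8P, so they were not limited to protein-coding genes. The annotation release, the strand setting and the treatment of reads that hit several genes are not given in the sources used here. Counts were neither realigned nor recounted. Library totals ranged from 9273470 to 12718780.

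Counts were analysed with edgeR 4.0.16 in R 4.3.3. Genes were filtered with filterByExpr (minimum count 10, minimum total 15), scaled with TMM and fitted over all 6 libraries with condition as the only term. P-values of the quasi-likelihood test were adjusted by the Benjamini-Hochberg method over all 14758 genes, with the thresholds of the study's methods (adjusted p below 0.01, absolute log2 fold change above 0.6). The fit was tested on simulated data. CPM were computed from the TMM-scaled library size. Ratios of summed counts have exact binomial 95% intervals, and shares Wilson intervals. A gene with at most 3 counts per library was taken as not detectable. Replicates of a group differed by more than sampling noise (chi-square per degree of freedom 2.76, 1.92 and 1.73).

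Named in the text were members called in any comparison, the 5 C-type isoforms, the 2 members of each cluster with the highest mean CPM (tied among 3 alpha genes with 1 count each), up to 6 called genes of each list and comparison, and a few regulators and neighbors whatever their result. The members and lists were chosen with earlier results of these data known. Alternatives were DESeq2 1.42.0, RLE scaling, other filters and thresholds, fewer libraries and a replicate block. Positions came from GENCODE release 44. Summaries used Python 3.11.15 with pandas 2.3.3, numpy 2.4.6, scipy 1.17.1 and matplotlib 3.10.9.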

Additional observations from a re-analysis of the deposited data

How the results depend on the processing

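Over 12 alternatives to the fit, PCDHGC3, PCDHGC4, PCDHGC5 and PCDHGA12 kept their calls in every comparison except for PCDHGA12 in control against 0 h, and no called member changed direction. Of the values of 9 followed members, 312 kept their side of the threshold, 37 lost a call and 1 gained one (PCDHGC3, depleted against control, at an adjusted p below 0.05 with no fold change threshold).

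With DESeq2, 1 clustered protocadherin was called lower in control against 0 h, 3 in depleted against control and 3 in depleted against 0 h. At an adjusted p below 0.05 with no fold change threshold, 5 members were lower in control against 0 h, and of all genes 5500 were lower in control against 0 h, 2375 higher and 3330 lower in depleted against control and 5658 lower in depleted against 0 h. Leaving out 1 library at a time, the members called lower numbered 1 to 3 in control against 0 h, 3 to 5 in depleted against control and 3 to 6 in depleted against 0 h. A group left with 1 library was assumed to vary like the others. Apart from the looser threshold, which passes more genes by construction, the cause of these shifts was not tested.

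The labels give replicate numbers only, so whether libraries were handled in pairs is not known. Replicate differences correlated across genes with coefficients of -0.019 (0 h, control), 0.011 (0 h, depleted) and -0.029 (control, depleted). These values show no large shared shift, but counting noise can hide a small one. With the replicate block, 2 members were lower in control against 0 h, 5 in depleted against control and 6 in depleted against 0 h.

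Without the most abundant member, the summed level was 3.13 CPM at 0 h and 1.48 CPM in control for the beta cluster, and 45.3, 60.2 and 32.0 CPM in the 3 conditions for the gamma cluster. RLE scaling moved the control gamma sum to 163 CPM, by more than its small SD. The same alternatives were run for genes of the lists, a choice made after seeing the data. Depth limits members with few counts: the alpha genes, 17 of 19 beta genes and 6 of 23 gamma genes were not tested singly.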
